A study of Saccharomyces cerevisiae with 50 samples.

Results

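The molecular chaperones and heat shock proteins of budding yeast were followed through 25 strains, nearly all of them short of a ribosomal protein. The set held 39 of the 6679 open reading frames in the deposited tables. Its members were listed by gene name, with earlier results of these data known. It covered the cytosolic Hsp70 proteins and their cofactors, Hsp90 and its co-chaperones, the disaggregase Hsp104 with small heat shock proteins and protein sorting factors, the chaperones of mitochondria, the coactivator gene MBF1, and the 8 subunits of the cytosolic chaperonin CCT. For 38 the symbol stood in the tables, and the row of CUR1 (YPR158W) was found by its systematic name. Not every gene outside the ring is a classical heat shock gene, so these 31 are called the members outside the CCT ring.

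Cells of the SK1 background were harvested at an optical density of 0.6 from cultures kept at 30 °C in rich glucose (2%) medium. The labels name no heat treatment. In each strain ribosome footprints, which count ribosomes on coding sequences, and total mRNA were sequenced once. Among the strains, 14 lacked genes of the large (60S) subunit (RPL strains): the single deletions rpl7a, rpl24a, rpl24b, rpl26a, rpl26b, rpl38, rpl40a, rpl40b, rpl41a and rpl41b, the double deletion rpl26a rpl26b, and the double heterozygotes rpl7a/+ rpl7b/+, rpl26a/+ rpl26b/+ and rpl40a/+ rpl40b/+. Another 9 lacked genes of the small (40S) subunit (RPS strains): the single deletions rps0b, rps25b, rps28a, rps28b, rps29b and rps22a (strains 4659 and 4662v), the double deletion rps25a rps25b and the double heterozygote rps22a/+ rps22b/+. The 2 wild-type samples carried the same strain number, and nothing in the labels says whether they came from separate cultures. Strains of a class mostly have different genotypes, and some share a deleted gene, so errors and p-values describe the spread between strains.

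Hsp70 binds exposed hydrophobic stretches of unfolded proteins, is loaded by J-domain proteins and is emptied by nucleotide exchange factors. Hsp90 completes the folding of a narrower range of clients, which Hsp70 hands over through the adaptor Sti1. In yeast the transcription factor Hsf1 keeps many of these genes expressed in unstressed cells and raises them when Hsp70 is occupied by unfolded proteins. CCT is a double ring that folds actin and tubulin as they are made, and its subunit genes are not counted among the usual targets of Hsf1.

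Depth, in M (mega) reads on genes, was 1.1 to 3.506 M for mRNA of RPL strains, 0.962 to 1.518 M for mRNA of RPS strains and 4.102 to 8.572 M for footprints of all strains. Of 40 values for homozygously deleted genes in their own strains, 38 lay below the range of the strains labelled for other gene families, at no more than 3.05% of their median. The 2 exceptions were RPS22A mRNA and footprints in the strain labelled rps22a (4662v), which stood at 93.4% and 111% of it. The heterozygote rpl26a/+ rpl26b/+ held RPL26A at 53.1% of the other strains in mRNA but at 99.9% in footprints. In the other double heterozygotes 1 gene of the pair stood at 45.4% to 66.7% in both assays, while RPL7B reached 423% and 394% (mRNA, footprints) in rpl7a/+ rpl7b/+, RPS22B 214% and 257% in rps22a/+ rps22b/+, and RPL40A 96.4% and 79.3% in rpl40a/+ rpl40b/+. The strain rps25a rps25b lacked both of its genes but differed from the other RPS strains for several members. Call counts are also given without these strains. All values are levels in RPKM, reads scaled by gene length and library total, recomputed from the deposited signal. They are relative to the total of each library, so that fewer cells with a transcript and less transcript per cell cannot be told apart.

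SSA2 (YLL024C), a constitutive cytosolic Hsp70, had the highest mRNA level, with 1839 and 1905 RPKM in the 2 wild-type libraries. HSC82 (YMR186W), the constitutive Hsp90, followed with 1431 and 1558 RPKM, and SSC1 (YJR045C), the Hsp70 of the mitochondrial matrix, with 1228 and 1387 RPKM. At the other end, HSP26, a small heat shock protein, had 7.56 and 9.98 RPKM and SSA4, a strictly heat-inducible Hsp70, 10.3 and 11.1 RPKM. Abundant constitutive copies thus stood beside inducible copies at a small share of their level. Closely related pairs (SSA1 with SSA2, SSA3 with SSA4, HSP82 with HSC82) can share reads, and how such reads were counted is not given in the sources used here, so the split within each pair is uncertain.

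The comparison of the classes of strain asks whether a shortage of small subunit proteins and one of large subunit proteins leave different expression patterns. Part of the chaperone genes outside the CCT ring were lower in RPS strains than in RPL strains. In mRNA 14 of 39 members passed as lower (limma, adjusted p under 0.05) and 0 as higher, against 6.74% lower and 2.92% higher among all 5103 genes tested. That left 17 of the 31 members outside the ring short of the threshold. In footprints 13 of 36 tested members passed as lower and 0 as higher, against 4.41% and 1.21% of 4222 genes, with 15 of the 28 tested outside the ring not past it. SSA3, SSA4 and HSP26 did not reach the minimum mean level of 10 RPKM in footprints and were not tested there.

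All members past the test lay outside the CCT ring. The median log2 difference (RPS minus RPL) was -0.22 over the 31 members outside the ring in mRNA and -0.26 over the 28 tested in footprints, beside -0.02 and -0.04 over all genes. Of these, 27 of 31 and 26 of 28 had a negative difference. Both assays called 11 of the genes, which is 78.6% of the mRNA calls and 84.6% of the footprint calls. The overlap over all called genes was not computed, and both assays come from the same strains. BTN2, HCH1 and HSC82 passed in mRNA alone and AHA1 and HSP104 in footprints alone, and the difference between the assays was not past the test for any of them.

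The number of calls depended on the strains and the scaling. Without rps22a (4662v) 12 members were lower in mRNA and 10 in footprints, and without rpl26a/+ rpl26b/+ 14 and 13. With rps25a rps25b left out as well, 15 were lower and 3 higher in mRNA (SSA3, CNS1 and CCT2). In footprints 16 were then lower and 1 higher (CNS1). That strain was set aside for its values of these genes, so these counts describe and test nothing. Leaving out rpl7a/+ rpl7b/+ gave 18 and 13 calls, rps22a/+ rps22b/+ 9 and 7, and rps0b 9 and 5. Calls over all genes are not given beside these counts by left-out strain. The counts therefore do not show a dependence particular to the members. With quantile normalization 9 members were lower and CCT2 higher in mRNA, and 6 were lower in footprints. Over all genes in mRNA that scaling turned the split from 344 lower and 149 higher to 293 lower and 318 higher, and in footprints it moved it from 186 and 51 to 123 and 111.

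**Figure D1:**
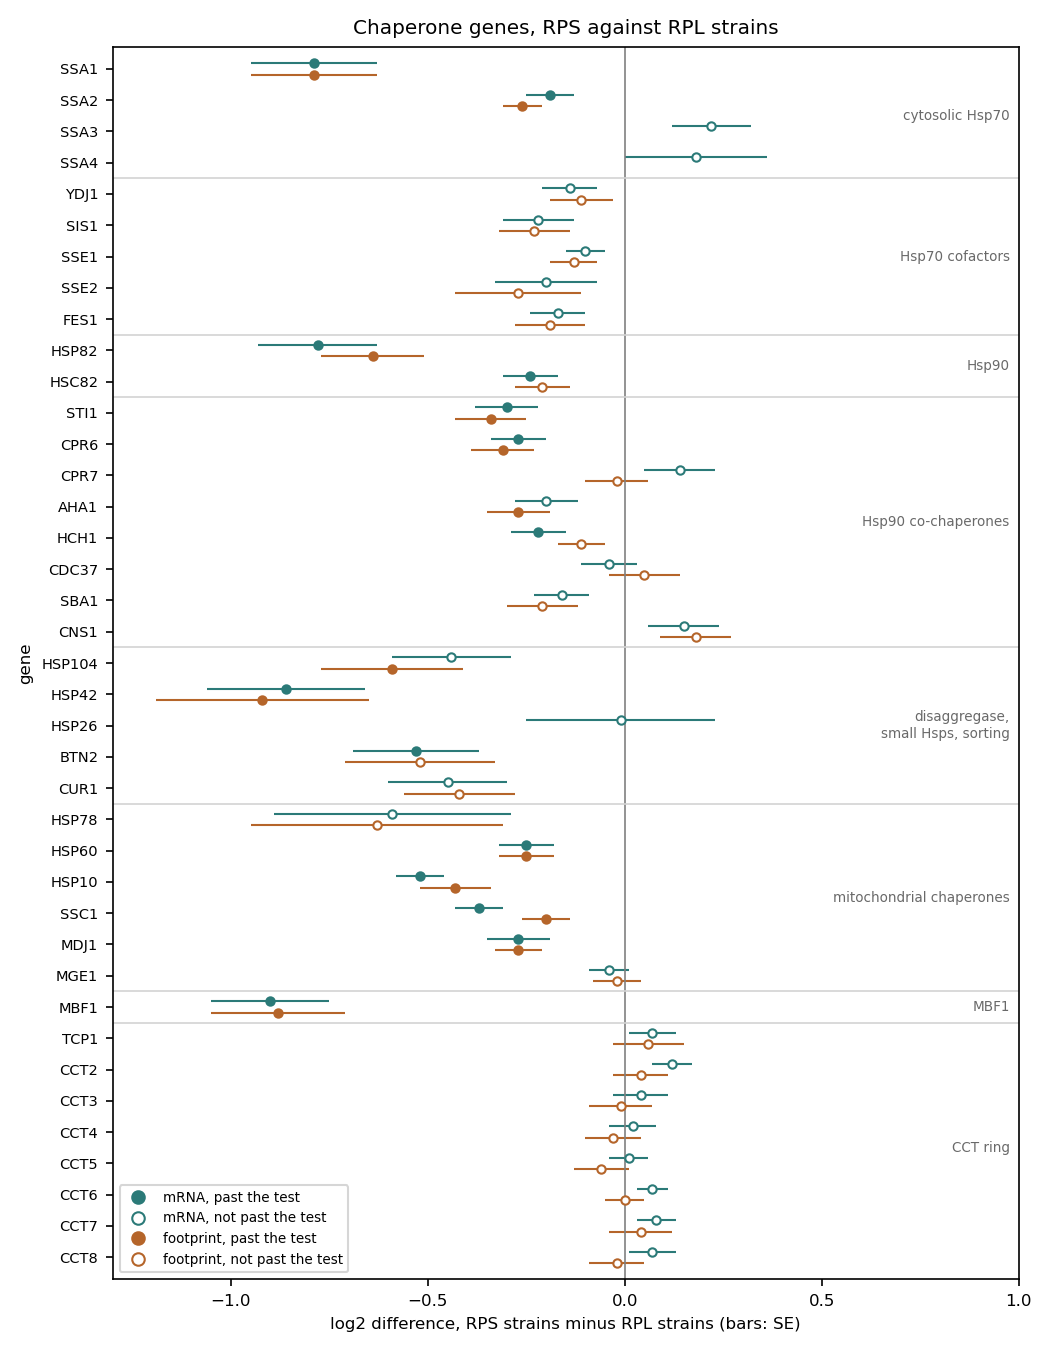
Difference between RPS and RPL strains for each of the 39 genes, in log2(RPKM + 1), with its standard error, in mRNA (green) and footprints (brown), grouped by role. Filled points passed the test at an adjusted p under 0.05. They lie between -0.92 and -0.19, and all points of the CCT ring are open and lie between -0.06 and 0.12.

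Among the cytosolic Hsp70 genes, the strongly heat-responsive copy SSA1 (YAL005C) differed most. Its mRNA level ran from 122 to 313 RPKM in RPS strains (median 161) and from 185 to 508 RPKM in RPL strains (median 296), with 206 and 304 RPKM in the wild type. The classes overlapped, with 5 of 9 RPS strains below every RPL strain, and the lowest value of all was that of rps0b. The log2 difference was -0.79 ± 0.16 (SE), with an adjusted p of 0.00345 (limma). SSA1 footprints ran from 257 to 521 RPKM (median 338) in RPS strains and from 378 to 989 RPKM (median 550) in RPL strains, with 418 and 544 RPKM in the wild type, a difference of -0.79 ± 0.16 (adjusted p = 0.0129). The highest footprint level belonged to the double heterozygote rpl40a/+ rpl40b/+ and the highest mRNA level to rpl7a.

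SSA2, whose protein is nearly the same as that of SSA1, was lower by a smaller amount. Footprints ran from 2245 to 2989 RPKM in RPS strains (median 2690) and from 2851 to 3597 RPKM in RPL strains (median 3174), with 3078 and 2908 RPKM in the wild type. Here 8 of 9 RPS strains lay below every RPL strain, and the difference was -0.26 ± 0.05 (adjusted p = 0.0123). In mRNA the RPS strains held 1419 to 2029 RPKM (median 1743) and the RPL strains 1529 to 2328 RPKM (median 1966), a difference of -0.19 ± 0.06 (adjusted p = 0.049) that passed in 5 of 25 removals of 1 strain. This mRNA call passed in 3 of 13 alternative settings and with none of the other scalings.

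The level of SSA1 relative to SSA2 had a lower median in RPS strains as well. This ratio was not tested, and any reads shared by the pair leave its split uncertain. SSA1 mRNA stood at 7.64% to 16.0% of SSA2 mRNA in RPS strains (median 9.45%), at 12.1% to 25.8% in RPL strains (median 15.1%), and at 11.2% and 16.0% in the wild type. In 6 of 9 RPS strains the ratio was below that of every RPL strain, and rps25a rps25b held the highest ratio of its class.

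The strictly inducible copies gave no such pattern. SSA3 mRNA had a difference of 0.22 ± 0.10 (adjusted p = 0.171) and SSA4 mRNA one of 0.18 ± 0.18 (adjusted p = 0.569). Without rps25a rps25b, which held the lowest RPS level of both, the SSA3 difference was 0.29. SSA3 rested on 29 to 124 reads per mRNA library and SSA4 on 11 to 74.

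None of the 5 Hsp70 cofactors passed in either assay (limma; 3 at an unadjusted p under 0.05 in mRNA and 2 in footprints, and 0 by voom). Their differences ran from -0.10 to -0.27. They are the J-domain proteins YDJ1 and SIS1, which deliver substrates to Hsp70, and the exchange factors SSE1, SSE2 and FES1. SSE1 (YPL106C), the most abundant in the wild type at 981 and 938 RPKM of mRNA, ran from 828 to 1083 RPKM in RPS strains (median 989) and from 956 to 1160 RPKM in RPL strains (median 1057). Its difference was -0.10 ± 0.05 (adjusted p = 0.191). SIS1, at -0.22 ± 0.09 in mRNA (adjusted p = 0.105) and -0.23 ± 0.09 in footprints (adjusted p = 0.116), passed as lower in 2 of 25 removals in mRNA. FES1 lay under the RPL median in 9 of 9 RPS strains in both assays, with differences of -0.17 ± 0.07 in mRNA (adjusted p = 0.112) and -0.19 ± 0.09 in footprints (adjusted p = 0.212).

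The inducible Hsp90 gene HSP82 (YPL240C) was lower in RPS strains in both assays. Its mRNA ran from 92.4 to 246 RPKM in RPS strains (median 175) and from 154 to 338 RPKM in RPL strains (median 265), and stood at 153 and 256 RPKM in the wild type. The difference was -0.78 ± 0.15 (adjusted p = 0.00314), and 9 of 14 RPL strains lay above every RPS strain. In footprints the RPS strains held 163 to 313 RPKM (median 212), the RPL strains 245 to 576 RPKM (median 353) and the wild type 211 and 272 RPKM, a difference of -0.64 ± 0.13 (adjusted p = 0.0129).

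HSC82, the abundant copy, was lower by less. Its mRNA ran from 1165 to 1635 RPKM in RPS strains (median 1400) and from 1368 to 1915 RPKM in RPL strains (median 1688), a difference of -0.24 ± 0.07 (adjusted p = 0.0246) that was lost without rps0b. Its footprints ran from 1585 to 2409 RPKM (median 2260) and from 2109 to 3125 RPKM (median 2448), and the difference of -0.21 ± 0.07 did not pass (adjusted p = 0.0744). HSP82 mRNA was 7.63% to 17.2% of HSC82 mRNA in RPS strains (median 10.7%) and 11.3% to 19.6% in RPL strains (median 16.2%), with 10.7% and 16.4% in the wild type. The ratio was below every RPL strain in 5 of 9 RPS strains, and the estimated difference was larger for the inducible copy. The ratio was not tested, and any reads shared by the pair leave its split uncertain.

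Of the 8 Hsp90 co-chaperones, 3 were lower in mRNA and 3 in footprints, with STI1 and CPR6 in both. STI1 (YOR027W), the adaptor between Hsp70 and Hsp90, had 277 to 418 RPKM of mRNA in RPS strains (median 340) and 327 to 518 RPKM in RPL strains (median 423), with 368 and 380 RPKM in the wild type. The difference was -0.30 ± 0.08 in mRNA (adjusted p = 0.0172). Its footprints ran from 551 to 755 RPKM (median 671) and from 688 to 1187 RPKM (median 812), with 670 and 724 RPKM in the wild type, and differed by -0.34 ± 0.09 (adjusted p = 0.0261, lost without rps0b). In each assay 9 of 9 RPS strains lay below the RPL median.

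CPR6 (YLR216C), a peptidyl-prolyl isomerase bound to Hsp90, ran from 221 to 301 RPKM of mRNA in RPS strains (median 240) and from 244 to 370 RPKM in RPL strains (median 308). The difference was -0.27 ± 0.07 (adjusted p = 0.0144). The wild-type libraries held 214 and 217 RPKM, below all 23 mutant strains, so that in this gene both classes lay on the same side of the wild type. The differences from the wild type, 0.21 for RPS and 0.48 for RPL strains, did not pass (adjusted p = 0.608 and 0.562). In footprints this was not so: the wild type had 435 and 446 RPKM, inside the range of both classes, and CPR6 was lower in RPS than in RPL strains by a log2 of -0.31 ± 0.08 (adjusted p = 0.0324), passing in 17 of 25 removals.

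AHA1 and HCH1, related activators of the Hsp90 ATPase, each passed in 1 assay and not firmly. AHA1 footprints had medians of 316 RPKM in RPS and 393 RPKM in RPL strains, a difference of -0.27 ± 0.08 (adjusted p = 0.047, passing in 7 of 25 removals and 7 of 13 alternative settings). HCH1 mRNA had medians of 313 and 378 RPKM, a difference of -0.22 ± 0.07 (adjusted p = 0.039, passing in 12 of 25 removals and 9 of 13 alternative settings). The remaining co-chaperones are CPR7, another isomerase, CDC37, which brings kinases to Hsp90, SBA1, the yeast p23 protein, and CNS1, an essential cofactor. Their differences ran from -0.21 to 0.18 and none passed. Without rps25a rps25b, where CNS1 was lowest, its footprint difference was 0.25.

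Among the disaggregase, the small heat shock proteins and the sorting factors, HSP42 (YDR171W) had the largest difference. Hsp42 gathers misfolded proteins into cytosolic deposits. Its mRNA ran from 17.7 to 41.4 RPKM in RPS strains (median 27.8) and from 24.8 to 95.4 RPKM in RPL strains (median 55.5), with 29.7 and 54.7 RPKM in the wild type. The difference was -0.86 ± 0.20 (adjusted p = 0.00817), and 9 of 14 RPL strains lay above every RPS strain. Footprints ran from 8.9 to 38.6 RPKM (median 16.2) and from 15.0 to 81.6 RPKM (median 32.8), with 16.7 and 42.3 RPKM in the wild type. Their difference of -0.92 ± 0.27 (adjusted p = 0.0459) passed in 10 of 25 removals.

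HSP104 (YLL026W), the ring-shaped ATPase that pulls proteins out of aggregates, had 72.1 to 151 RPKM of mRNA in RPS strains (median 91.5) and 81.4 to 184 RPKM in RPL strains (median 133), a difference of -0.44 ± 0.15 that did not pass (adjusted p = 0.058). By voom on the recovered reads it did (log2 -0.46, adjusted p = 0.0455), as it did in 4 of 25 removals. In footprints the medians were 93.8 and 150 RPKM, and the difference of -0.59 ± 0.18 (adjusted p = 0.049) passed in 6 of 25 removals. It passed in 5 of 13 alternative settings, and was lost by voom and with every other scaling. Both assays thus gave HSP104 a negative difference near the threshold.

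BTN2 and CUR1 are related factors that sort misfolded proteins to their deposits. BTN2 mRNA ran from 18.1 to 49.1 RPKM in RPS strains (median 24.7) and from 25.3 to 55.4 RPKM in RPL strains (median 38.6), a difference of -0.53 ± 0.16 (adjusted p = 0.0318). It stood at 12.6 and 23.2 RPKM in the wild type, below all 14 RPL strains, but the difference between RPL strains and wild type did not pass (log2 1.11, adjusted p = 0.562). The RPS call was lost without rpl26b, rpl26a rpl26b, rpl40a, rps22a/+ rps22b/+ or rps29b. CUR1 lay below the RPL median in 9 of 9 RPS strains in both assays, with differences of -0.45 ± 0.15 in mRNA (adjusted p = 0.0626) and -0.42 ± 0.14 in footprints (adjusted p = 0.0624). It passed as lower in 6 of 25 removals in mRNA and in 3 in footprints. HSP26 mRNA, at 2 to 22 reads per library, gave a difference of -0.01 ± 0.24 (adjusted p = 0.988).

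The mitochondrial chaperones held the member with the smallest adjusted p. HSP10 (YOR020C), the lid of the mitochondrial chaperonin, had 454 to 697 RPKM of mRNA in RPS strains (median 557) and 695 to 887 RPKM in RPL strains (median 814), with 701 and 659 RPKM in the wild type. The difference was -0.52 ± 0.06 (adjusted p = 4e-05). The classes overlapped by a narrow margin: 8 of 9 RPS strains lay below every RPL strain, and rps25b was the exception. Footprints ran from 1480 to 2373 RPKM (median 1744) and from 1445 to 2666 RPKM (median 2483), with 2367 and 2017 RPKM in the wild type, a difference of -0.43 ± 0.09 (adjusted p = 0.0153).

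SSC1, the Hsp70 that pulls proteins into the matrix and folds them there, had 806 to 1193 RPKM of mRNA in RPS strains (median 946) and 1131 to 1444 RPKM in RPL strains (median 1246). The difference was -0.37 ± 0.06 (adjusted p = 0.00106), and all 9 RPS strains lay below both wild-type libraries, whose levels fell within the RPL range. SSC1 footprints differed by -0.20 ± 0.06 (adjusted p = 0.0457), with medians of 1266 and 1415 RPKM, and passed in 9 of 25 removals. They passed in 8 of 13 alternative settings and with none of the other scalings.

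HSP60 (YLR259C), the ring that Hsp10 caps, and MDJ1 (YFL016C), the J-domain partner of Ssc1, were lower in both assays. HSP60 mRNA had medians of 690 RPKM in RPS and 806 RPKM in RPL strains and differed by -0.25 ± 0.07 (adjusted p = 0.0295), a call lost without rps22a/+ rps22b/+, rps29b, rps22a (4659) or rps0b. HSP60 footprints differed by -0.25 ± 0.07 (adjusted p = 0.0422), passing in 12 of 25 removals. With median-of-ratios, trimmed-mean (TMM) or quantile scaling HSP60 passed in neither assay. With library totals less ribosomal protein genes its footprints did not pass either. MDJ1 mRNA had medians of 87.3 and 118 RPKM and differed by -0.27 ± 0.08 (adjusted p = 0.0317, passing in 18 of 25). MDJ1 footprints differed by -0.27 ± 0.06 (adjusted p = 0.0213, passing in 23 of 25, lost without rps22a (4659) or rps0b). With quantile normalization MDJ1 passed in neither assay, and its mRNA call was also lost in libraries thinned to the shallowest total. HSP10 mRNA was 73.8% to 103% of HSP60 mRNA in RPS strains (median 81.1%) and 88.7% to 119% in RPL strains (median 98.9%), with 97.2% and 82.0% in the wild type. In footprints it was 166% to 209% in RPS strains (median 175%), 156% to 241% in RPL strains (median 202%), and 251% and 173% in the wild type. No RPS strain lay below every RPL strain there, the lowest of which was rpl26a/+ rpl26b/+. In each assay 8 of 9 RPS strains lay below the RPL median. The ratio was not tested.

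MGE1 and HSP78 did not pass. MGE1, the exchange factor of Ssc1, had differences of -0.04 ± 0.05 in mRNA (adjusted p = 0.676) and -0.02 ± 0.06 in footprints (adjusted p = 0.909). HSP78, the mitochondrial relative of Hsp104, had differences of -0.59 ± 0.30 (adjusted p = 0.214) and -0.63 ± 0.32 (adjusted p = 0.241), with a single strain far above the rest, described below.

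MBF1 (YOR298C-A), a transcriptional coactivator and ribosome-associated factor rather than a chaperone, showed the largest mRNA difference of the set. Its mRNA ran from 428 to 642 RPKM in RPS strains (501 ± 73.2, mean ± SD, n = 9) and from 608 to 1394 RPKM in RPL strains (967 ± 292, n = 14), with 764 and 831 RPKM in the wild type. The difference was -0.90 ± 0.15 (adjusted p = 0.00106), and 8 of 9 RPS strains lay below every RPL strain. Footprints ran from 1185 to 1837 RPKM (median 1331) and from 1318 to 4187 RPKM (median 2640), with 2384 and 2352 RPKM in the wild type, a difference of -0.88 ± 0.17 (adjusted p = 0.0123). All 9 RPS strains lay below both wild-type libraries in both assays, while the RPL strains lay on both sides of them.

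**Figure D2:**
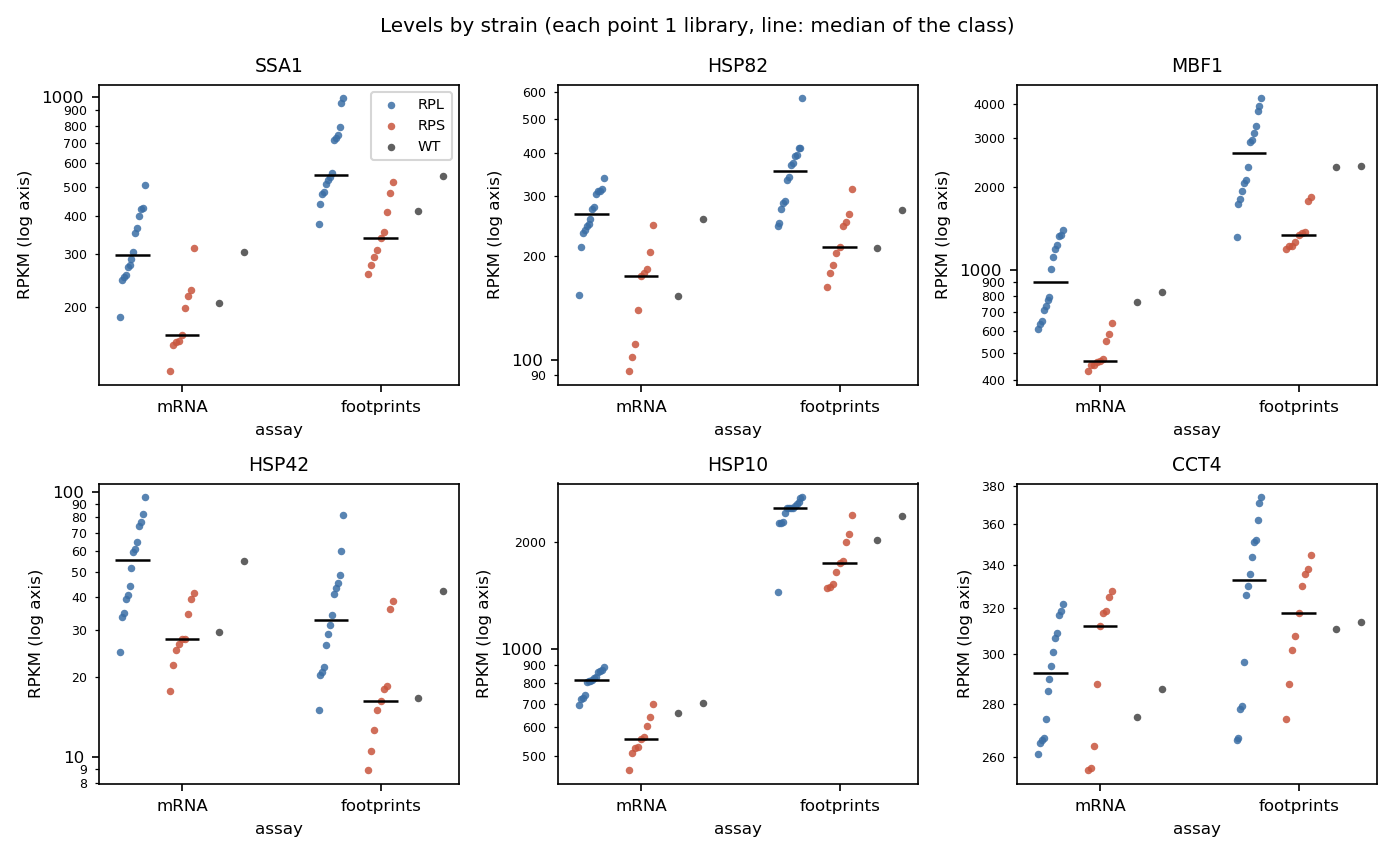
Levels in RPKM (log axis) of 6 genes in each strain, in mRNA and footprints, for RPL (blue, 14), RPS (red, 9) and wild-type (grey, 2) libraries, sorted by level within a class; the line marks the class median. SSA1, HSP82, MBF1, HSP42 and HSP10 have lower RPS medians in both assays, and for CCT4 the medians are 312 and 293 RPKM in mRNA and 318 and 333 RPKM in footprints.

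Of the 8 subunits of the CCT ring none passed in either assay (limma; 1 at an unadjusted p under 0.05 in mRNA and 0 in footprints, and 0 by voom). Differences ran from 0.01 to 0.12 in mRNA (median 0.07) and from -0.06 to 0.06 in footprints (median -0.01). CCT4 (YDL143W), the most abundant subunit in wild-type mRNA, ran from 255 to 328 RPKM in RPS strains (median 312) and from 261 to 322 RPKM in RPL strains (median 293), with 286 and 275 RPKM in the wild type. The classes overlapped fully, and the difference was 0.02 ± 0.06 (adjusted p = 0.86). CCT2 had the largest difference, 0.12 ± 0.05 in mRNA (adjusted p = 0.165), and it passed as higher with quantile normalization (log2 0.18, adjusted p = 0.0393). Without rps25a rps25b, where CCT2 mRNA was lowest among RPS strains, its difference was 0.15.

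Subunits of the ring, which are assembled in equal numbers, differed less from each other in mRNA than in footprints. No other complex was compared. Within a strain the highest subunit exceeded the lowest by 1.29 to 1.59 times in mRNA (median 1.42) and by 1.65 to 2.54 times in footprints (median 1.97). CCT7 had the lowest footprint level in 25 of 25 strains, at a mean of 168 RPKM, and CCT6 the highest in 16 of 25, at a mean level of up to 327 RPKM. The spread between strains was narrower for the ring than for the members outside it. The SD of log2 mRNA levels over the 25 strains had a median of 0.12 over the ring (0.09 for CCT6 to 0.15 for CCT3), of 0.23 over the members outside it (0.11 for SSE1 to 0.77 for HSP78) and of 0.22 over all tested genes. In footprints the medians were 0.16, 0.23 and 0.22. These SDs include the difference between the classes. Within RPL strains the medians of the ring and the members outside it were 0.1 and 0.19 in mRNA and 0.17 and 0.21 in footprints. Within RPS strains they were 0.16 and 0.23 in mRNA and 0.17 and 0.19 in footprints.

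The same contrast was visible strain by strain. The median deviation from the RPL mean over the members outside the ring was below 0 in 9 of 9 RPS strains, from -0.39 in rps22a/+ rps22b/+ to -0.06 in rps22a (4659) in mRNA, and from -0.37 in rps25b to -0.14 in rps28a in footprints. The corresponding median over the ring ran from -0.18 to 0.20 in mRNA and from -0.30 to 0.19 in footprints, with rps25a rps25b lowest in both. Members outside the ring lay below the ring in every RPS strain, by 0.12 to 0.58 in mRNA and 0.04 to 0.52 in footprints, with rps0b showing the widest gap in both. They also lay below it in both wild-type libraries, by 0.19 and 0.05 in mRNA and by 0.20 and 0.08 in footprints, and in 6 of 14 RPL strains in each assay, where the difference ran from -0.26 to 0.20 and from -0.22 to 0.36. Among RPL strains the lowest medians outside the ring were those of rpl7a/+ rpl7b/+ in mRNA (-0.30) and rpl41a in footprints (-0.24), and the wild type stood at -0.21 and -0.09 in mRNA and at -0.22 and -0.13 in footprints. The difference between the median outside the ring and that of the ring was -0.29 in mRNA and -0.25 in footprints (RPS minus RPL), given as a description with no test.

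**Figure D3:**
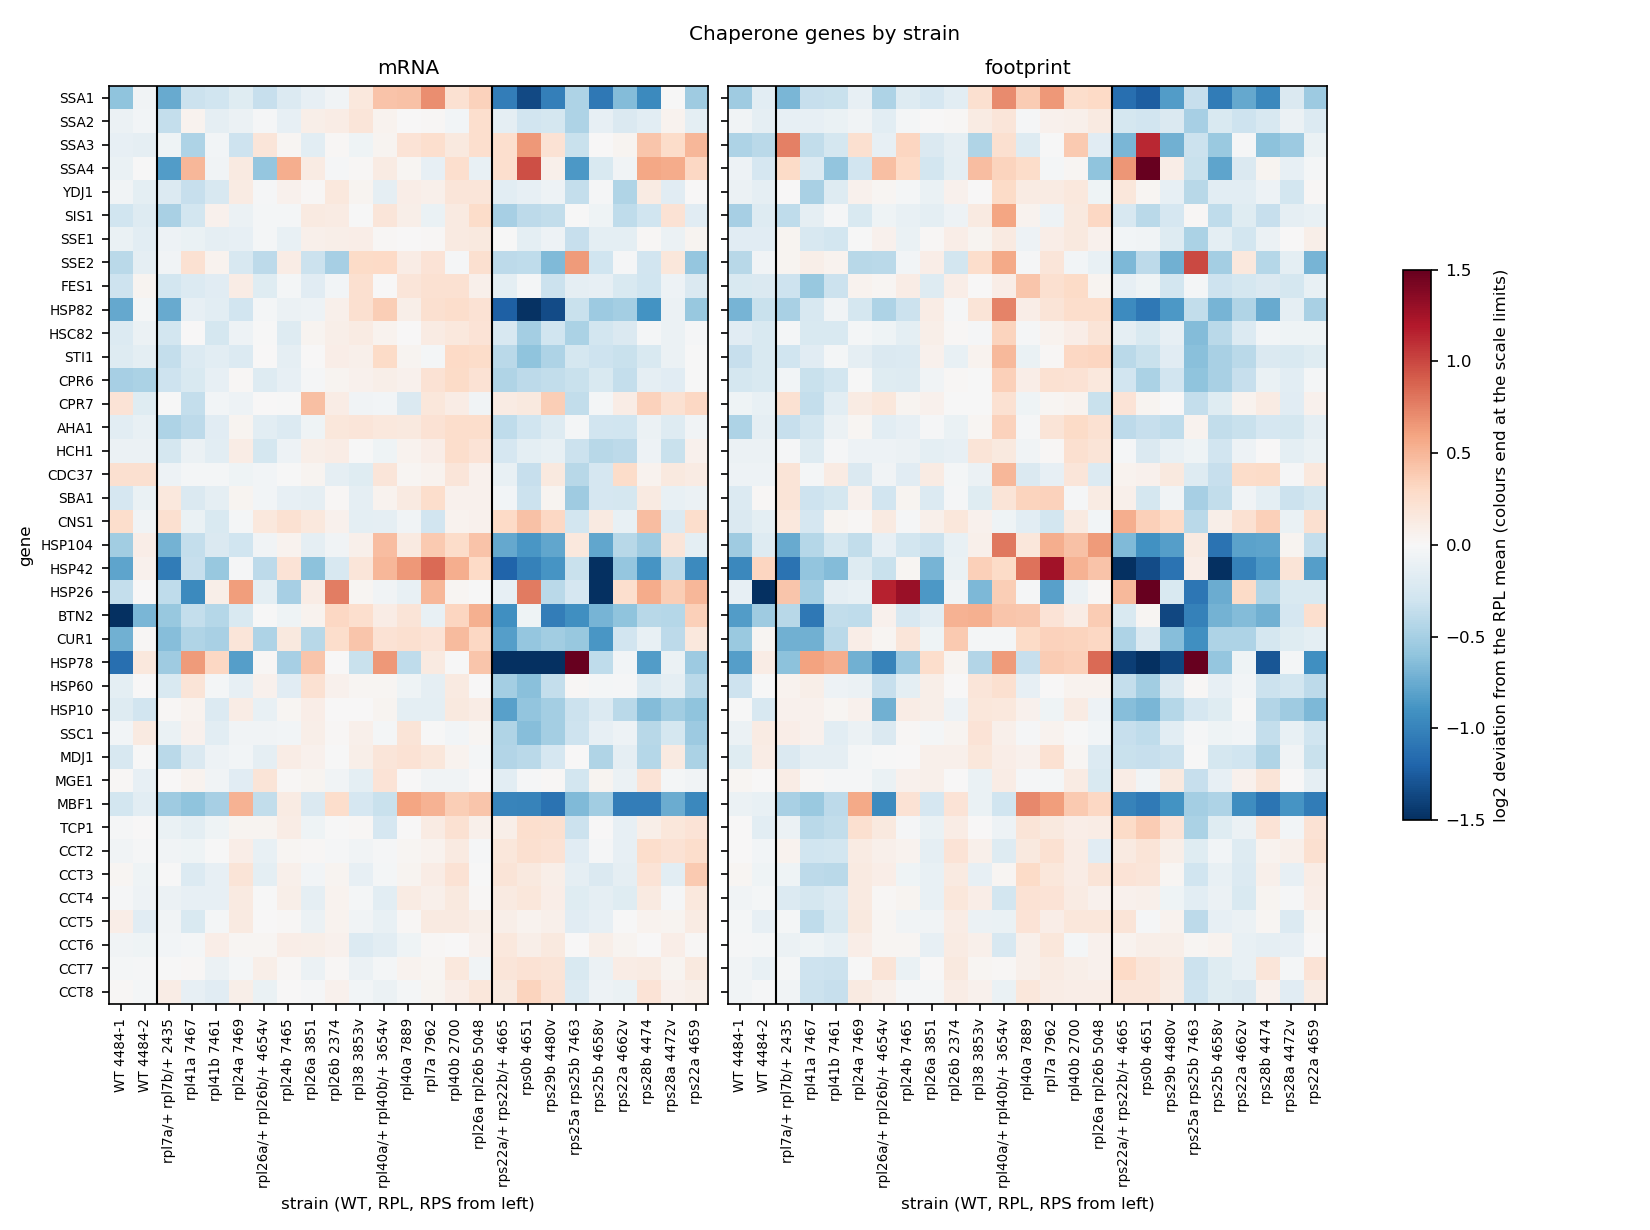
Deviation of each of the 39 genes from its mean over the RPL strains, in log2(RPKM + 1), for each strain (columns, with wild type, RPL and RPS strains separated by black lines) in mRNA and footprints. Blue cells prevail outside the CCT ring in RPS strains, and HSP78 in rps25a rps25b and SSA4 in rps0b are dark red single cells among them.

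Counted in reads, the 39 genes took 1.71% to 2.07% of the mRNA reads in RPS strains (median 1.89%) and 1.84% to 2.44% in RPL strains (median 2.24%), with 1.96% and 2.09% in the wild type. In footprints the share was 2.45% to 2.79% in RPS strains (median 2.62%), 2.72% to 3.64% in RPL strains (median 3.1%), and 2.74% and 2.84% in the wild type. The highest share of footprints was that of rpl40a/+ rpl40b/+, where Hsp90 genes alone took 0.762%. The CCT ring took a median of 0.324% of the footprints in RPS strains and 0.323% in RPL strains.

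Neither class could be told from the wild type for any member. Against the 2 wild-type libraries, limma called 0 members in RPS strains and 0 in RPL strains in either assay, as did voom, and 0% of all genes were called in each of these 4 comparisons. At an unadjusted p under 0.05 there were 4 members in RPS and 3 in RPL strains in mRNA, and 3 and 3 in footprints. These comparisons share the wild-type libraries, which differed from each other for several inducible genes, such as HSP82 and HSP42 above. The medians over the members outside the ring were -0.09 (RPS minus wild type) and 0.15 (RPL minus wild type) in mRNA, and -0.06 and 0.19 in footprints, with 4 of 31 and 2 of 28 negative in RPL strains. The difference between the classes is thus not assigned to either of them by these data.

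Translational efficiency, the footprint level minus the mRNA level of the same strain on the log2 scale, did not pass for any member. Limma called 0 of 36 members between RPS and RPL strains (1 at an unadjusted p under 0.05; 0 also without the pairing by strain), against 1.12% of 4199 genes. Differences ran from -0.16 to 0.17. SSC1 had the largest, 0.17 ± 0.05 (adjusted p = 0.097), and lay above the RPL median in 9 of 9 RPS strains. For SSA1 the difference was 0.00 ± 0.05, for MBF1 0.02 ± 0.07 and for HSP82 0.14 ± 0.09.

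In the wild type the efficiency itself varied widely between members. Its median was 0.47 over the 28 members outside the ring, 0.04 over the ring and -0.24 over all tested genes, on a scale that is relative to the totals of both assays. HSP10 had the highest value (1.75 and 1.61 in the 2 pairs of libraries), followed by MBF1 (1.64 and 1.5), and BTN2 the lowest (-0.58 and -1.10). HSP42 was also low, at -0.80 and -0.36. These are levels, and no test was made between genes.

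In a few members 1 strain stood far from the others. HSP78 reached 169 RPKM of mRNA (417 reads) and 236 RPKM of footprints (2708 reads) in rps25a rps25b. The other 8 RPS strains held 14.4 to 54.3 RPKM of mRNA and 18.9 to 65.7 RPKM of footprints, the RPL strains 31.1 to 88.6 and 32.8 to 121 RPKM, and the wild type 25.1 and 62.8, then 37.4 and 72.1 RPKM. Without that strain the log2 differences of HSP78 were -0.86 and -0.93, given with no test because the strain was singled out by these values. SSE2, the minor exchange factor of the Hsp110 family, was highest in the same strain, at 30.4 RPKM of mRNA and 29.9 RPKM of footprints against medians of 15.3 and 10.6 RPKM in its class.

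The strain rps0b held the lowest mRNA of SSA1, HSP82, HSC82, STI1, HSP104, HSP78, HSP60 and SSC1 among RPS strains. Its SSA4 footprints stood at 24.7 RPKM (217 reads), against 1.33 to 5.41 RPKM in the other 8 RPS strains, 1.66 to 4.56 RPKM in RPL strains, and 2.84 and 2.39 RPKM in the wild type. HSP26 footprints were at 20.8 RPKM (57 reads) in rps0b, against 0.354 to 3.01 RPKM in the other RPS strains and up to 6.01 RPKM in RPL strains. In 1 wild-type library no HSP26 footprint was counted, which allows up to 3 reads or 0.848 RPKM, for counting error only. In mRNA the same strain was highest of the RPS strains for both genes with a smaller margin, at 22.8 RPKM for SSA4 and 17.8 RPKM for HSP26. With 1 library per strain and assay, a strain and its library cannot be told apart.

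**Figure D4:**
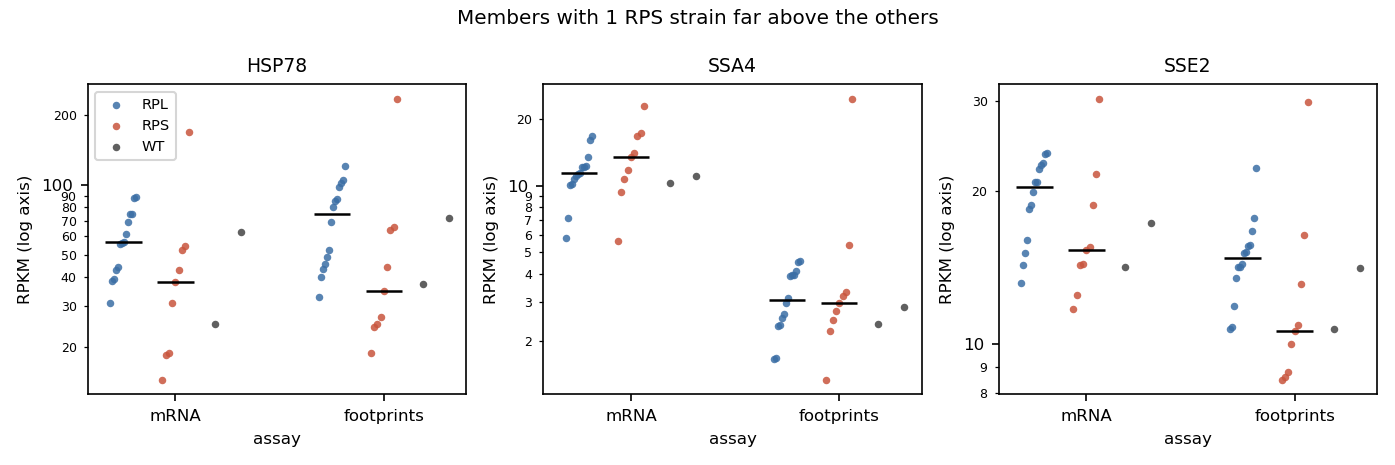
Levels in RPKM (log axis) of HSP78, SSA4 and SSE2 in each strain, in mRNA and footprints, with classes as colours and the class median as a line. The isolated red points are rps25a rps25b at 169 and 236 RPKM for HSP78 and at 30.4 and 29.9 RPKM for SSE2, and rps0b at 24.7 RPKM of footprints for SSA4.

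Other genes of the protein folding network were read from lists of their own. Of 8 genes for prefoldin and CCT cofactors, which feed the ring, and of 6 for its clients actin, tubulin and actin-related proteins, none passed in either assay, with list medians from -0.12 to -0.02. Of 6 stress transcription factors, MSN4 alone passed, in mRNA (log2 -0.64, adjusted p = 0.0444), whereas HSF1 had differences of -0.06 ± 0.06 in mRNA and -0.02 ± 0.11 in footprints (adjusted p = 0.58 and 0.932). HSP12, a membrane-associated stress protein, had differences of -1.92 ± 0.78 and -1.71 ± 0.74 (adjusted p = 0.116 and 0.157), and no gene of its list passed. Of 12 further Hsp70 and Hsp90 cofactors, the J-domain gene APJ1 (log2 -0.44, adjusted p = 0.00813) and the cyclophilin gene CPR1 (-0.38, adjusted p = 0.00111) were lower in mRNA, and CPR1 also in footprints (-0.31, adjusted p = 0.0194).

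Of the mitochondrial and endoplasmic reticulum genes outside the set few passed. None of the other mitochondrial chaperones and proteases passed (7 of 8 tested in mRNA, 6 in footprints). Of 9 chaperones of the endoplasmic reticulum, KAR2, its Hsp70, was lower in mRNA (log2 -0.36, adjusted p = 0.00634) and the calnexin gene CNE1 higher (0.25, adjusted p = 0.0363), with none past the test in footprints. Of 7 ribosome-bound chaperones none passed in mRNA or footprints, and EGD1, a subunit of the nascent polypeptide-associated complex, had a higher efficiency in RPS strains (0.47, adjusted p = 0.0357).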

How the data were processed

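The authors deposited 1 table per assay with a column per strain. The deposited values are a signal that grew with gene length, although the columns are headed RPKM: each read added an amount proportional to the coding length minus 60 nt. Bowtie2, bcl2fastq 2.17 and CASAVA appear in the submitters' processing notes. Genome build, strand use and multi-gene reads are not described in the sources used here, so overlapping and antisense genes cannot be told apart. Whole reads were recovered within 0.03 reads, for 87.6% of 5812 open reading frames at the length in the RefSeq R64 gene table (5994 of 6679 names matched). The length of SIS1 was taken from the values. An unnamed line of totals (1 per table) was left out, as were 153 open reading frames with no length, holding 9.33e-05% of the mRNA signal.

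RPKM was recomputed from the reads and the length less 60 nt. Tests were made in R 4.3.3 with limma 3.58.1 on genes whose mean over 25 libraries reached 10 RPKM (mean-variance trend, two-sided, Benjamini-Hochberg over all genes, adjusted p under 0.05) in log2(RPKM + 1), all 3 classes sharing 1 fit. Efficiency was taken within a strain. The pairing comes from the strain numbers in the labels: over 4199 genes the deviations of the 2 libraries of a strain correlated at 0.29 to 0.84 in 24 of 25 strains and at 0.04 in rpl26a/+ rpl26b/+. Chi-square per degree of freedom between the wild-type libraries was 3.22 in mRNA and 10.4 in footprints, a spread beyond counting error. They were counted as 2 samples, although this spread cannot show whether they came from separate cultures. The script was tested on simulated data.

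The members, gene lists and tests were chosen with earlier results of these data known. Values by strain are given, per role, for the member with the highest wild-type mRNA and up to 3 further members past the test; other members appear by range or were named after their values were seen. Alternatives covered the pseudocount, the minimum level, scaling, voom, thinning to equal depth, and left-out strains. The labels give no batch.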

Additional observations from a re-analysis of the deposited data

Results flagged for a closer look

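Among the 9 RPS strains, 6 of 82 sets of values held a single strain whose gap to the next exceeded Dixon's limit on the log2(RPKM + 1) scale, and chance flags about 1 set in 20. In rps0b the highest footprint levels were 24.7 RPKM for SSA4, 20.8 RPKM for HSP26 and 2.93 RPKM for SSA3 (26 reads). In rps25a rps25b, HSP78 footprints were highest at 236 RPKM, and SSE1 mRNA was lowest at 828 RPKM. HSP26 mRNA was lowest in rps25b, at 2.3 RPKM, which is 2 reads. These are values of single libraries.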

How the results depend on the processing

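No difference between RPS and RPL strains that passed changed sign under the alternatives run. Left out 1 at a time, the strains gave 9 to 18 members past the test in mRNA (14 with all) and 5 to 16 in footprints (13 with all). The mRNA count fell to 9 without rps22a/+ rps22b/+ or rps0b. The footprint count fell to 5 without rps0b, to 7 without rpl26a rpl26b, rpl40b, rpl24a, rpl7a, rps22a/+ rps22b/+, rps29b or rps22a (4659), and to 8 without rpl38, rpl26b, rpl40a or rps28b. Footprints gave 6 calls with quantile normalization and 7 with library totals less ribosomal protein genes; the cause was not tested. The 8 mRNA calls SSA1, HSP42, SSC1, CPR6, HSP10, STI1, MBF1 and HSP82, and the 5 footprint calls SSA1, SSA2, HSP10, MBF1 and HSP82, passed in all 25 removals and 13 alternatives. Thinned to the shallowest library, 12 members passed in each assay. For the removals and the thinning, calls over all genes are not given, so a dependence particular to the members is not shown. With no replicate block, so without pairing the assays by strain, efficiency gave 0 members and 3 of all genes, against 47 with it. Scalings moved the split over all genes in mRNA from 344 lower and 149 higher to 315 and 260 (median of ratios) and 293 and 318 (quantile), where 9 members were lower and CCT2 higher. The median outside the ring less that of the ring ran from -0.34 to -0.25 in mRNA and from -0.29 to -0.22 in footprints over the removals. Depth leaves SSA3, SSA4 and HSP26 with few reads.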
